A study of Mus musculus with 22 samples.

Results

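Brain endothelial cells of the mediobasal hypothalamus (MBH) formed cluster 3 of the Day 5 whole-cell data, the cluster number being the one deposited for each cell. This cluster held 4113 of 54890 whole cells, between 163 and 629 per mouse. The mouse of each cell was read from the deposited sample name. No cell was chosen by its treatment or by the level of a gene under test, but every gene of these cells could enter the clustering, so their levels against other clusters are given as a description with no test.

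Brain endothelial cells line the capillaries, arterioles and venules of the brain and form the blood-brain barrier together with pericytes and astrocyte endfeet. Tight junctions seal them, efflux pumps return drugs and metabolites to the blood, and dedicated carriers pass glucose, amino acids, lactate and thyroid hormone into the tissue. In the MBH these barrier capillaries border the fenestrated capillaries of the median eminence, which express Plvap and lack a tight seal.

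The cells came from male Lep ob/ob mice of 11 weeks, diabetic and without functional leptin in both groups. FGF1-injected mice (n = 6) received 3 µg of fibroblast growth factor 1 (FGF1) once into the lateral ventricle (icv), and vehicle-injected mice (n = 6) received phosphate-buffered saline (PBS) icv and were pair-fed to the intake of the FGF1 group. On Day 5 the MBH of each mouse was dissociated enzymatically into whole cells and made into 1 droplet library that counts the 3' ends of transcripts as unique molecular identifiers (UMIs). Each mouse was thus 1 replicate, and each of the 6 batches named in the deposited metadata held 1 mouse of each group. Enzymatic dissociation selects the cells that survive it, neurons had been removed by the authors, and a model of systemic leptin deficiency does not separate diabetes from obesity.

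UMIs of cluster 3 summed per mouse ranged from 227646 to 1036723, and the median cell held 1330 UMIs. Over all whole cells, 1791 barcode sequences occurred in 2 or more mice, in 3616 of 54890 cells. How many of these lay within cluster 3 was not counted on the sequence alone. Of its cells, 3586 stayed within the limits of 20% mitochondrial and 20% ribosomal UMIs that the study names, so those limits do not describe all cells that were used here. Levels below are counts scaled to 1000000 UMIs of the cells named (CPM), pooled over all mice or summed per mouse.

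The label was borne out by the marker genes. Ly6c1 had a UMI in 88.4% of the cells against 1.76% of microglia (cluster 8), which should lack it and had a similar depth with a median of 1263.5 UMIs. Itm2a was found in 87.3% against 2.41% of microglia. The organic anion carrier Slco1a4 was found in 76.4% against 1.28%, the tight junction protein Cldn5 in 71.2% against 1.34%, and the efflux pump Abcb1a in 55.7% against 0.856%. At least 5 UMIs of these 5 genes together were held by 86.5% of the cells, by 0.749% of microglia and by 5.01% of cluster 15, whose leading markers were those of pericytes. The 15 genes of the endothelial identity list summed to 15018 CPM in cluster 3 and to 3315 in the next cluster, number 19.

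Of the 1449 genes at 100 CPM or more, Adgrl4, an adhesion receptor of vessels, stood highest over every other cluster, with 362 CPM against 33.8 in the next cluster (ratio 10.7). Cyyr1 (ratio 8.42) and the endothelial transcription factor Erg (106 against 13.3, ratio 7.95) came next. The 20 leading genes included 3 carriers. The thyroid hormone carrier Slco1c1 reached 579 against 75.3, Slco1a4 1275 against 177, and the large amino acid carrier Slc7a5 592 against 95.1. Receptors of vessel growth and guidance were there as well, with the VEGF receptor Kdr at 297 against 49.8 and Robo4 at 102 against 15.5. The other leading genes were Sgms1, Ctla2a, Pglyrp1, Sema3c, Palmd, Prom1, Nostrin, Itm2a, Rasip1, Sema7a, Gm694 and Spock2, with ratios between 5.07 and 7.02.

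**Figure D1:**
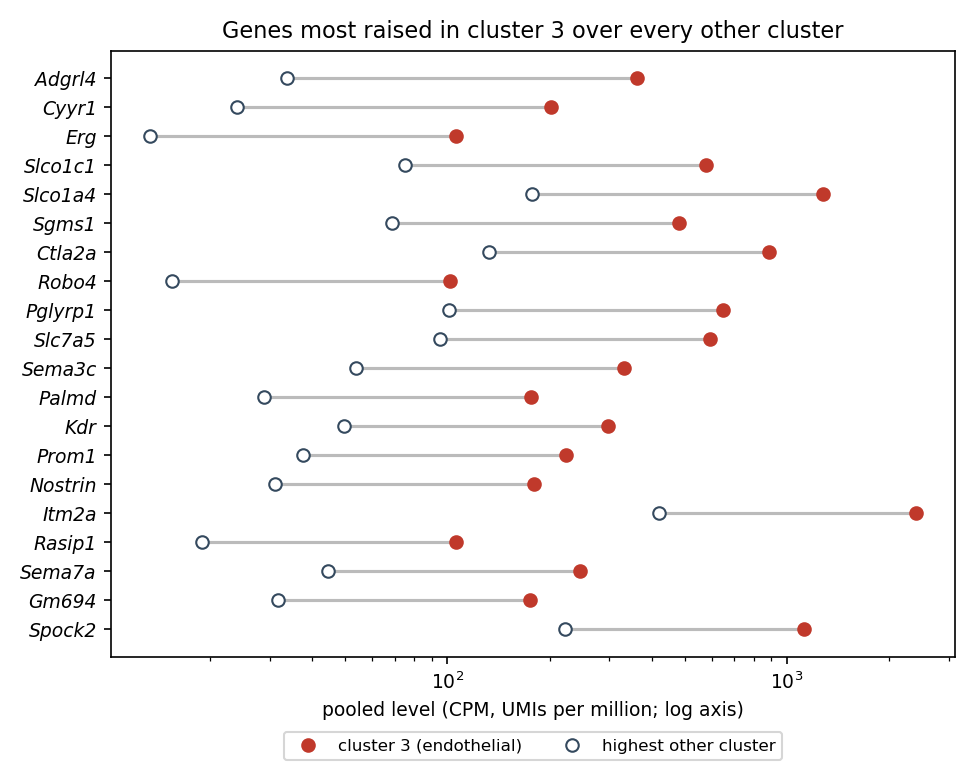
Pooled level in CPM on a log axis of the 20 genes with the largest ratio of cluster 3 (filled points) to the highest other cluster (open points). The ratios run from 5.07 for Spock2 to 10.7 for Adgrl4.

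RNA of pericytes, the contractile cells wrapped around capillaries, was frequent in cluster 3. At least 5 UMIs of the 6 pericyte genes Kcnj8, Abcc9, Vtn, Rgs5, Higd1b and Pdgfrb were held by 1456 cells (35.4%), against 0.374% of microglia and 92.5% of the 359 cells of cluster 15. Rgs5 was the most abundant of them, at 1549 CPM in cluster 3 and 2872 in cluster 15 (ratio 0.539). The others had ratios between 0.171 and 0.275, and the share of cells was not counted without Rgs5. Among the 1456 cells, 1303 also held at least 5 endothelial UMIs and 62 held 2 or fewer. They were deeper than the 1279 cells with no pericyte UMI, with medians of 1761.5 and 1144 UMIs. Their endothelial levels were nevertheless close to those of cells with no pericyte UMI (Cldn5, 1184 and 1242 CPM; Slco1a4, 1192 and 1325; Ly6c1, 2519 and 2433). Igfbp7, a secreted vessel protein, was at 317 and 156. Per mouse, the share of cells with pericyte RNA was 31.6% at lowest, 36.0% at the median and 47.3% at highest in the FGF1 group and 28.3%, 34.2% and 43.3% in the vehicle group. The groups overlapped, and their means differed by 1.5 percentage points (37.1% ± 5.39 and 35.6% ± 5.68, SD, n = 6; two-sided exact permutation test, p = 0.658). With every cell thinned to 1000 UMIs the difference was 3.55 percentage points (p = 0.253, same exact test). Of which kind these cells were (doublets, or endothelial cells with attached pericytes) was not tested.

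Some cells of the cluster held UMIs of arterial or venous genes. At least 3 UMIs of the arterial genes Bmx, Gkn3, Sema3g, Hey1, Efnb2 and Vegfc were found in 154 cells (3.74%) and of the venous genes Vwf, Slc38a5, Lcn2 and Nr2f2 in 260 cells (6.32%). Both were found in 15 further cells (0.365%) and neither in 3684 (89.6%). Of 1870 microglia 0 reached 3 arterial UMIs, which allows a share of up to 0.160% by counting error alone, and 0.321% of microglia reached 3 venous UMIs. The groups are cuts in a range and not types: 159 cells held 2 arterial UMIs and 76 held exactly 3, and 357 and 146 did so for the venous genes. Depth moved with the cut, since the median UMI number was 1819 in arterial-gene cells, 2577 in venous-gene cells and 1281 in the rest.

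Levels of genes that the cut did not use are given for the same cells. Mgp, a matrix protein of arteries, was at 1392 CPM in arterial-gene cells, 283 in venous-gene cells and 239 in the rest, and exceeded the rest in 12 of 12 mice. Tm4sf1, a membrane protein of endothelium, was at 1491, 479 and 556, also above the rest in 12 of 12 mice. The phosphatase gene Alpl (185, 20.2 and 37.8) and the vasoconstrictor Edn1 (545, 277 and 241) were each above the rest in 11 of 12 mice. Of the capillary list, the carbonic anhydrase Car4 was at 268 CPM in arterial-gene cells, 1138 in venous-gene cells and 679 in the rest, with venous above arterial in 12 of 12 mice. Slc7a5, also of the capillary list, had the same order of arterial and venous cells in 12 of 12 mice (277, 692 and 600). The transferrin receptor Tfrc (126, 394 and 273), of that list too, and the interleukin-1 receptor Il1r1 (15.4, 115 and 25.6) were higher in venous than arterial cells in 11 of 12. Mfsd2a (83.2, 131 and 145) and Rgcc (24.6, 58.0 and 79.3), also of the capillary list, were instead highest in the rest. Their venous level was above the rest in 4 of 12 mice each. The glucose carrier Slc2a1 was highest in arterial-gene cells (1743, 1452 and 1124). Other genes went against their list: Vcam1, listed as venous, was at 154, 127 and 50.4, and Clu, listed as arterial, at 570, 379 and 629, above the rest in 4 of 12 mice. Arterial-gene cells numbered 2 to 34 per mouse and venous-gene cells 8 to 43, so that a mouse in these tallies can rest on few cells. These are pooled levels of cells of different depth, given with no test.

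**Figure D2:**
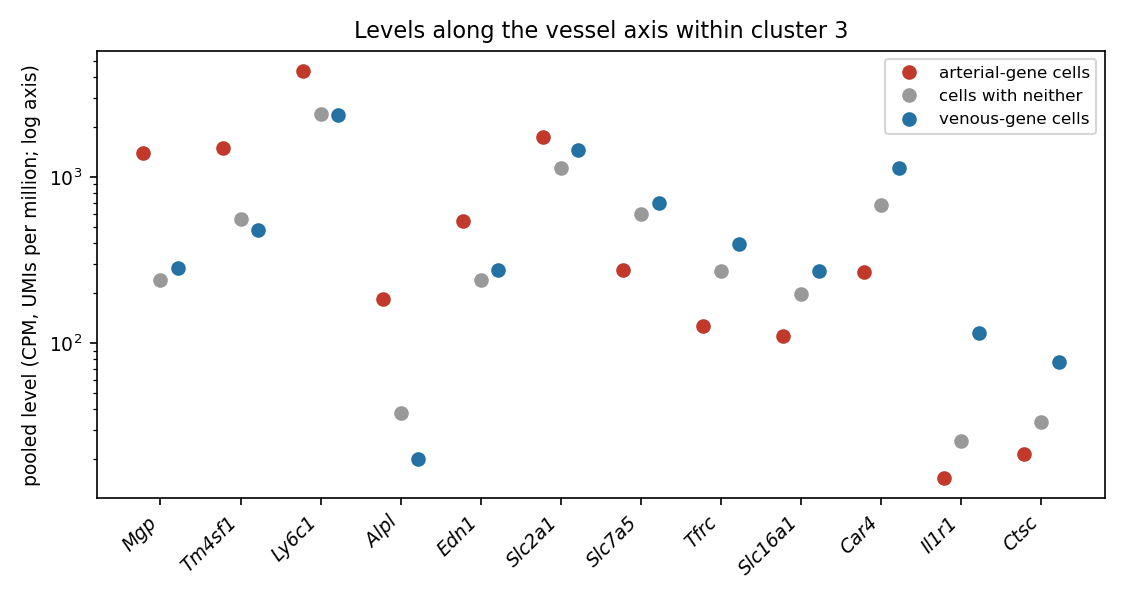
Pooled level in CPM on a log axis of 12 genes in cells with at least 3 UMIs of arterial genes (red, 154 cells), of venous genes (blue, 260 cells) and of neither (grey, 3684 cells). Mgp, Tm4sf1, Ly6c1, Alpl and Edn1 lie highest in arterial-gene cells, and Slc7a5, Tfrc, Slc16a1, Car4, Il1r1 and Ctsc in venous-gene cells.

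No difference in these shares was detected between FGF1- and vehicle-injected mice. Arterial-gene cells were 0.743%, 3.78% and 7.36% of the cluster (lowest, median, highest mouse) with FGF1 and 2.00%, 2.93% and 5.41% with vehicle (two-sided exact permutation test, p = 0.727). Venous-gene cells were 4.05%, 7.35% and 13.1% against 4.0%, 4.86% and 9.01% (same exact test, p = 0.249). In both cases the groups overlapped.

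Cells with a marker of fenestrated endothelium were counted by their UMIs, so that a cell without one may still express the gene. A UMI of Plvap, the diaphragm protein of fenestrae, was found in 53 cells (1.29%), against 0.856% of microglia. These 53 cells were at 234 CPM for Cldn5 (1262 in the other cells), 372 for Slco1a4 (1288), 276 for Slc2a1 (1205) and 31.9 for the lipid carrier Mfsd2a (141). They were at 924 for the sialomucin Emcn (254 in the other cells), 234 for the tip cell gene Esm1 (1.2) and 584 for Cd24a (37.2). The share of Plvap cells was 0%, 0.826% and 10.3% with FGF1 and 0%, 0.345% and 4.95% with vehicle, overlapping and led by 1 mouse in each group (FGF1 replicate 7 and vehicle replicate 35). The 0% were 0 of 163 cells in FGF1 replicate 21, 0 of 300 in vehicle replicate 29 and 0 of 254 in vehicle replicate 27, which allow shares of up to 1.84%, 1.0% and 1.18%. The means differed by 1.43 percentage points (two-sided exact permutation test, p = 0.556).

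The share of endothelial cells among all cells of a mouse was 3.81% at lowest, 6.56% at the median and 9.25% at highest with FGF1 and 5.98%, 8.64% and 12.9% with vehicle. The groups overlapped, and the share was lower with FGF1 in 5 of 6 batches. The means of 6.66% ± 1.88 and 9.0% ± 2.72 (SD, n = 6) did not differ beyond the spread between mice (two-sided exact permutation test, p = 0.119; 0.238 after Benjamini-Hochberg adjustment over 20 clusters). A share depends on the yield of all other cells: astrocyte cluster 1 was 5.03% ± 3.96 with FGF1 and 26.7% ± 3.80 with vehicle (adjusted exact permutation p = 0.0108), and astrocyte cluster 4 was 14.1% and 2.45% (adjusted exact permutation p = 0.0108).

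The response to FGF1 was then examined gene by gene, on counts summed over the endothelial cells of each mouse. Of 6329 genes tested with the edgeR quasi-likelihood test, 60 (0.948%) passed a false discovery rate (FDR, Benjamini-Hochberg) of 0.05, with 23 (0.363%) higher and 37 (0.585%) lower in FGF1-injected mice. With batch as a block, 112 genes (1.77%) passed, 49 (0.774%) higher and 63 (0.995%) lower, and 58 of the 60 were among them. Of the 60 genes, 53 moved in the same direction in all 6 batches, against 7.35% of all tested genes, and 25 did not overlap between groups, against 0.885% of all tested genes. The median log2 fold change of all tested genes was 0.01. The count rests on single mice: it was 19 without vehicle replicate 25 and 143 without vehicle replicate 35, and 15 genes were called without any 1 mouse (among them Sirt2, Meig1, Gpr50, Gngt2 and Gfap higher and Slc1a2, Apoc1, Atp1b2, Etnppl, F3, Cldn10, Gm3764, Dact3 and Ptch1 lower).

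The called genes were grouped by the cluster in which each gene had its highest level. Of 540 tested genes highest in cluster 3, 4 (0.741%) were called, all higher, and 12 (2.22%) with the batch block, all higher; their median log2 fold change was 0.10. Of 481 tested genes highest in astrocyte clusters 1 and 4, 25 (5.2%) were called, 24 of them lower, and the median was -0.21. Tanycyte clusters held 4 higher and 1 lower call among 439 genes (1.14%), the ependymal cluster 4 and 2 among 452 (1.33%) and microglia 2 and 0 among 294 (0.680%). None of 201 genes highest in cluster 15 was called, and 8 higher and 10 lower calls fell among the 3922 genes (0.459%) highest in the remaining clusters. Names of other clusters rest on marker lists, because the deposited metadata gives cluster numbers alone.

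**Figure D3:**
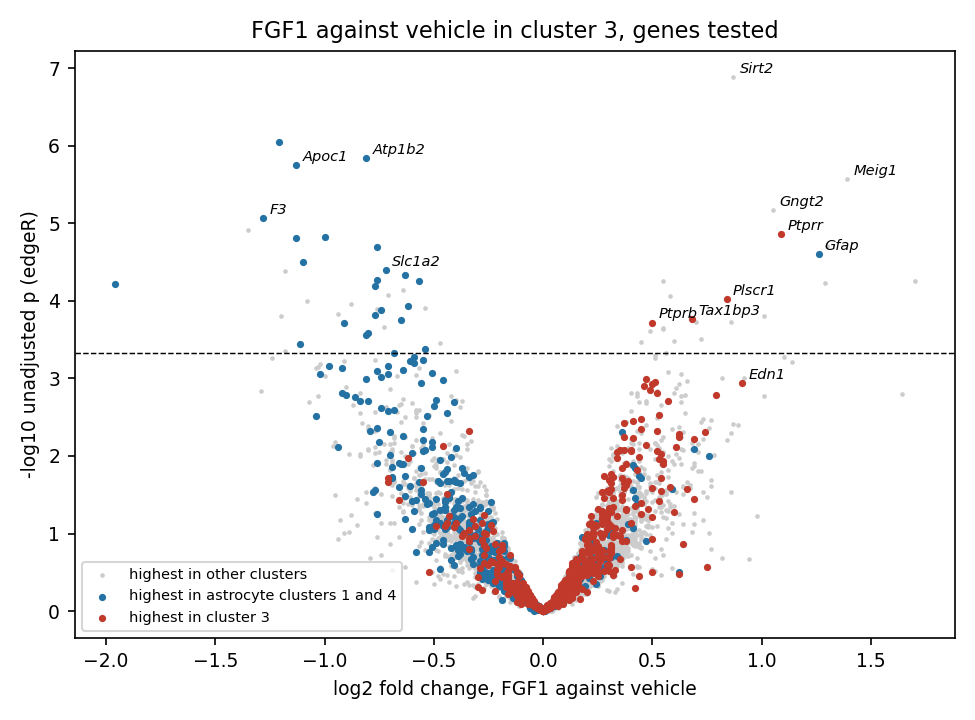
Log2 fold change of FGF1 against vehicle in cluster 3 (x axis) against -log10 of the unadjusted edgeR p (y axis) for the 6329 genes tested, coloured by the cluster with the highest level; the dashed line marks the p of an FDR of 0.05. The 4 called genes highest in cluster 3 (red) lie to the right, and 24 of the 25 called genes highest in astrocytes (blue) lie to the left.

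Among genes highest in endothelial cells, Ptprb and its neighbour Ptprr rose. Ptprb encodes the vascular endothelial protein tyrosine phosphatase, which acts on the angiopoietin receptor and on VE-cadherin, and had a UMI in 53.3% of cluster 3 cells and 0.802% of microglia. Its level was 618, 856 and 881 CPM (lowest, median, highest mouse) with FGF1 and 497, 563 and 620 with vehicle, so that the lowest FGF1 mouse reached just into the vehicle range. The log2 fold change was 0.50 ± 0.12 (SE, edgeR FDR = 0.0271), higher with FGF1 in 6 of 6 batches. Its call was lost without any 1 of 6 mice (FGF1 replicates 6, 21 and 10 and vehicle replicates 29, 20 and 25), with an edgeR FDR of up to 0.130, and the log2 fold change stayed between 0.45 and 0.56.

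Ptprr, a tyrosine phosphatase that acts on MAP kinases, was at 47.6, 78.6 and 104 CPM with FGF1 and 24.2, 36.7 and 46.0 with vehicle. Every FGF1 mouse lay above every vehicle mouse (log2 fold change 1.09 ± 0.21, SE, edgeR FDR = 0.00891). The call was lost without FGF1 replicate 10 (0.91, edgeR FDR = 0.0595) and held without any other mouse. In mouse build GRCm38 Ptprr lies on the plus strand at chr10:116018213-116274932 and Ptprb on the same strand at chr10:116275523-116389535, with 590 bases between them. Whether UMIs of one were counted for the other was not tested.

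Plscr1, a phospholipid scramblase known as an interferon-responsive gene, rose from 22.5, 35.4 and 41.3 to 47.6, 64.4 and 67.0 CPM with no overlap (log2 fold change 0.84 ± 0.19, SE, edgeR FDR = 0.0209). Tax1bp3, a PDZ domain protein, was at 76.2, 112 and 141 against 60, 65.2 and 83.6 (0.68 ± 0.16, SE, edgeR FDR = 0.0270), with FGF1 and vehicle mice overlapping. The call of Plscr1 was lost without any 1 of 5 mice (edgeR FDR up to 0.0832) and that of Tax1bp3 without any 1 of 7 (up to 0.110).

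Edn1, the precursor of the vasoconstrictor endothelin-1, missed the threshold without the block. It was at 250, 380 and 527 CPM with FGF1 and 126, 189 and 327 with vehicle, overlapping but higher in 6 of 6 batches (log2 fold change 0.91 ± 0.22, SE, edgeR FDR = 0.0737; 0.94 and FDR = 0.0132 with the batch block). DESeq2 called it (FDR = 0.00412). The other genes highest in cluster 3 that passed only with the batch block were Cd34, Pkig, Hprt, Clec2d, Ctla2a, AW112010 and Tmem252. Of these, the stem and endothelial cell antigen Cd34 had a log2 fold change of 0.48 (edgeR FDR = 0.0355 with the block), the kinase inhibitor Pkig 0.51 (0.0466) and Tmem252 0.84 (0.0153).

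**Figure D4:**
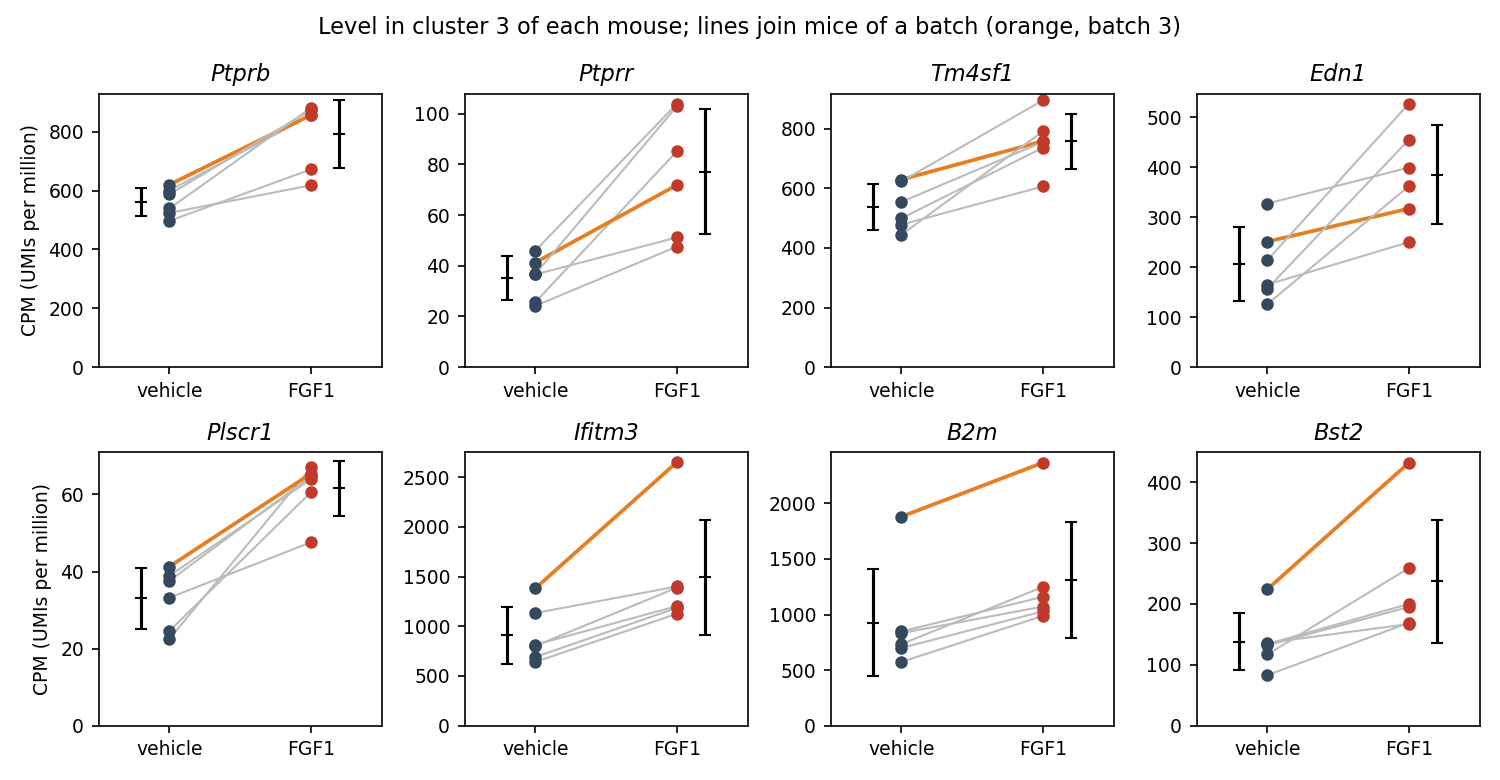
Level of 8 genes in cluster 3 of each mouse, in CPM; lines join the FGF1 and vehicle mouse of a batch, orange marks batch 3, and bars give the mean and SD of 6 mice. All lines rise, Ptprr and Plscr1 do not overlap between groups, and Ifitm3, B2m and Bst2 are highest in both mice of batch 3.

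Some genes whose level was higher in another cluster also rose. Tm4sf1, a membrane protein whose level was higher still in the ependymal cluster 6 (762 against 604 CPM), was at 606, 757 and 895 with FGF1 and 444, 526 and 629 with vehicle (log2 fold change 0.49 ± 0.12, SE, edgeR FDR = 0.0320). The groups overlapped by the lowest FGF1 mouse, and the call was lost without any 1 of 9 mice (edgeR FDR up to 0.175) and without cells holding a Plvap UMI. The intermediate filament gene Vim was at 484, 631 and 704 against 304, 389 and 581 (0.55 ± 0.13, SE, edgeR FDR = 0.0301). S100a10, a partner of annexin A2, reached 0.72 (edgeR FDR = 0.0373, DESeq2 FDR = 0.0537) and the tubulin gene Tuba1a 0.55 (FDR = 0.0160). The calls of Vim and S100a10 were each lost without any 1 of 8 mice (edgeR FDR up to 0.142 and 0.165), and that of Tuba1a without any 1 of 3 (up to 0.0686). S100a10 had 79.8 CPM against 699 in cluster 20 and a UMI in 10.8% of cluster 3 cells and 6.26% of microglia, and Tuba1a had 469 CPM against 8346 in cluster 9 and a UMI in 47.0% and 37.2%. In the list of 20 tested S100, annexin and cytoskeleton genes, Vim, S100a10 and Tuba1a were called higher (0.363% of all tested genes were) and none lower, with a median log2 fold change of 0.24 beside 0.01 for all genes. Astrocytes had a larger change of Vim (1.92) and tanycytes also (1.02), and the difference from both passed the test. Tm4sf1 was also called higher in astrocytes (0.89, edgeR FDR = 0.0291) and tanycytes (1.13, FDR = 0.00636), not in oligodendrocytes (1.02, FDR = 0.0589). S100a10 was called higher in each of them (0.80, 0.57 and 0.66, edgeR FDR = 0.000355, 0.0482 and 0.0232). Of the 23 genes called higher in cluster 3, 14 of 19 tested in astrocytes were called higher there. In tanycytes it was 11 of 19, in oligodendrocytes 4 of 17 and in microglia 0 of 9. The cell types differed in their number of calls. Of tested genes highest in astrocytes, 120 of 481 were called higher in astrocytes and 5 of 478 in tanycytes. In oligodendrocytes it was 1 of 471 and in microglia 0 of 225. The shares over all tested genes are not given here, so the counts are not compared between cell types.

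Of 5 tested genes of the proliferation list, 1 was called higher, beside 0.363% of all tested genes. This gene, Ccnd2, which encodes cyclin D2, was at 142, 164 and 179 CPM with FGF1 and 79.1, 111 and 142 with vehicle, with no overlap before rounding (log2 fold change 0.60 ± 0.15, SE, edgeR FDR = 0.0390). Most of the 15 list genes were too low to be tested, Mki67, Top2a and Ccnb1 among them (0.891, 1.19 and 0.148 CPM). Ccnd2 was also called higher in astrocytes (0.50, edgeR FDR = 0.0431) and tanycytes (0.49, FDR = 0.00910), not in oligodendrocytes (0.67, FDR = 0.138). The Ras-related gene Rasd1 was at 71.9, 94.8 and 135 against 43.5, 63.9 and 69.2, with no overlap (0.70 ± 0.16, SE, edgeR FDR = 0.0271). Both were higher in cluster 19, which held the most RNA of the pericyte and smooth muscle list, than in cluster 3. Without cells that held 5 or more pericyte UMIs, which left 2657 cells and 3920 tested genes, Ptprb, Tax1bp3, Vim, Rasd1 and S100a10 were no longer called. Their log2 fold changes there were 0.48, 0.60, 0.51, 0.62 and 0.78, beside 0.50, 0.68, 0.55, 0.70 and 0.72 over all cells. Ptprr was called there as well (1.02, edgeR FDR = 0.0334). The lysosomal genes Laptm4a (0.45, edgeR FDR = 0.0394) and Ctsh (0.58, edgeR FDR = 0.0197) rose as well, Ctsh being highest in microglia. Without any 1 of 8 mice the calls of Ccnd2 and Laptm4a were lost (edgeR FDR up to 0.185 for each), without any 1 of 6 that of Rasd1 (up to 0.131) and without any 1 of 4 that of Ctsh (up to 0.110).

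Other higher genes had their highest level elsewhere and a lower level in endothelial cells. The deacetylase Sirt2 had the lowest FDR of all, at 199, 225 and 271 CPM with FGF1 and 83.4, 132 and 139 with vehicle with no overlap (log2 fold change 0.87 ± 0.13, SE, edgeR FDR = 0.000835), and was called without any 1 mouse. It had a UMI in 21.2% of cluster 3 cells and 20.7% of microglia. Meig1 (1.39, edgeR FDR = 0.00339) was highest in ependymal cells, Gpr50 (1.30, edgeR FDR = 0.00980) in a tanycyte cluster, Gfap (1.26, edgeR FDR = 0.0113) in astrocytes and Gngt2 (1.05, edgeR FDR = 0.00721) in microglia. For Gfap the share of cells with a UMI was 6.95% in cluster 3 and 8.77% in microglia, so that expression of Gfap by cluster 3 cells is not shown. For Meig1 the shares were 4.11% and 3.69%, and for Gpr50 3.87% and 2.73%. The part of free RNA in the rises of Sirt2, Meig1 and Gpr50 was not tested.

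Lower genes were mostly those of astrocytes. None of the 37 was highest in cluster 3, and 24 were highest in astrocyte clusters. The glutamate carrier Slc1a2 was at 569, 884 and 1011 CPM with FGF1 and 1001, 1451 and 1806 with vehicle, lower in 6 of 6 batches with a slight overlap of the groups (log2 fold change -0.72 ± 0.15, SE, edgeR FDR = 0.0155). The sodium pump subunit Atp1b2 was at 172, 219 and 259 against 259, 379 and 476, with no overlap (-0.81 ± 0.14, SE, edgeR FDR = 0.00283). The GABA carrier Slc6a11 reached -0.80 (edgeR FDR = 0.0332), the brain aldolase Aldoc -0.57 (FDR = 0.0160) and the astrocyte enzyme Etnppl -1.13 (FDR = 0.00891). Atp1b2 and Etnppl were called without any 1 mouse, while the call was lost without any 1 of 9 mice for Slc6a11 (edgeR FDR up to 0.110) and of 4 for Aldoc (up to 0.0608).

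The same transcripts were found in cells of other types. Slc1a2 had a UMI in 68.2% of cluster 3 cells and in 62.8% of microglia, and Etnppl in 11.6% and 12.4%. In each of the 37 lower genes the share of microglia with a UMI was at least 0.5 of the share of cluster 3, as it was in 4935 of all 6329 tested genes. In 8 of the 37 (21.6%) it was as high or higher, which is near the 20.1% of all tested genes. The median of the 37 was 15% of cluster 3 cells and 12.4% of microglia. Microglia should lack the genes of astrocytes, so for those genes a share at or below that of microglia does not show expression by cluster 3 cells.

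Side by side, over the 24 lower genes highest in astrocytes, which were chosen for their fall in endothelial cells, the median log2 fold change was -0.79 in endothelial cells, -0.74 in microglia (22 of 22 tested genes below 0), -0.77 in tanycytes (23 of 24 below 0), -0.59 in oligodendrocytes (23 of 24 below 0) and -0.34 in astrocytes themselves (15 of 24 below 0). Over all 481 tested genes highest in astrocytes, called or not, the medians were -0.21, -0.24, -0.20, -0.21 and, in astrocytes, 0.13 (299 above 0), so that the sign in astrocytes turned with the choice of genes. These comparisons share the same 12 mice. For Slc1a2 the log2 fold changes were -0.72 in endothelial cells, -0.63 in microglia, -0.89 in tanycytes and 0.30 in astrocytes. The interaction test, with mouse as a block, found the endothelial effect below the astrocyte effect for 15 of the 24 genes and above it for none, beside 3.25% below among all 9261 genes, and different from the tanycyte effect for 1 gene, the creatine kinase Ckb. Since the 24 were chosen for a negative endothelial effect in the same mice, nothing is read from the count of 15. The astrocyte sums pool clusters 1 and 4, which held 5.03% and 14.1% of the cells of a mouse with FGF1 (means of 6 mice) and 26.7% and 2.45% with vehicle, so that a change within astrocytes and a change in their cluster makeup cannot be told apart here. The same holds for the oligodendrocyte sums of clusters 2, 11 and 12, whose mean shares were 6.96%, 5.07% and 0.766% with FGF1 and 17.9%, 0.706% and 2.85% with vehicle.

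**Figure D5:**
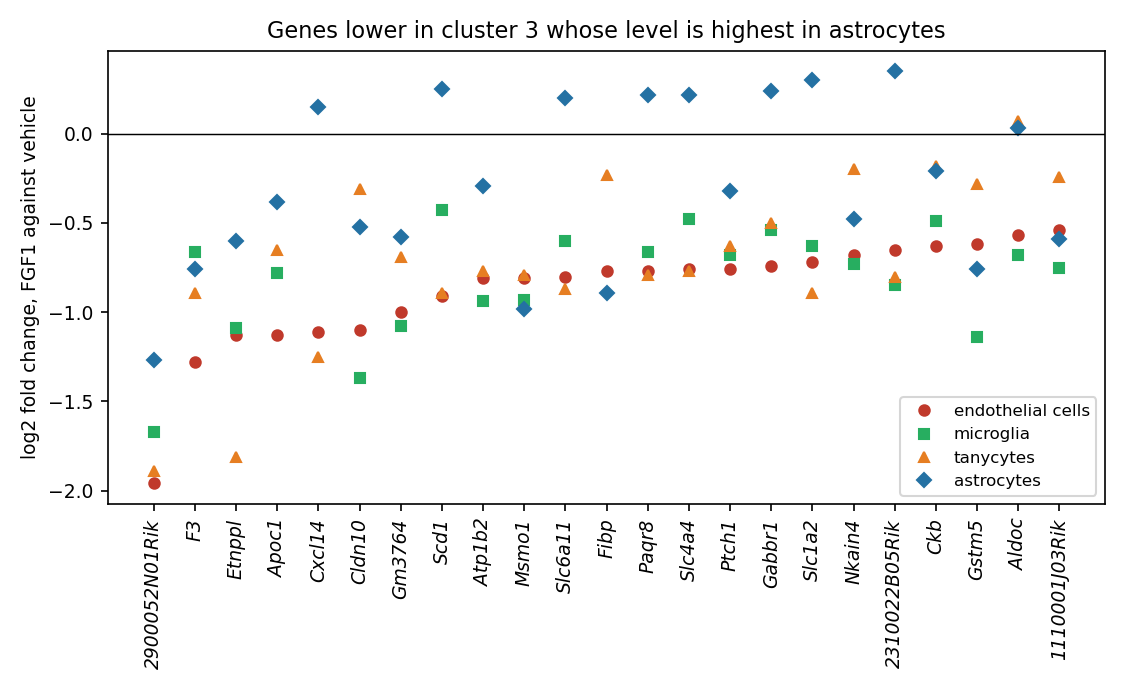
Log2 fold change of FGF1 against vehicle (y axis) in endothelial cells, microglia, tanycytes and astrocytes for 23 genes that were lower in cluster 3 and had their highest level in astrocytes. Endothelial values lie between -1.96 and -0.54, and 9 of the 23 astrocyte values lie above 0.

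Astrocyte RNA in cluster 3 moved with the groups. The 12 genes of the astrocyte marker list, none at 0 in cluster 3, summed to 53.1, 62.1 and 73.6 UMIs per 10000 UMIs (lowest, median, highest mouse) with FGF1 and to 66.7, 87.7 and 98.6 with vehicle, lower in 6 of 6 batches with overlap (two-sided exact permutation test, p = 0.00866, and 0.0317 adjusted over 11 marker lists). Tanycyte and ependymal lists moved the other way, from means of 8.28 to 11.0 and of 1.94 to 2.82 (adjusted exact permutation p = 0.0238 each). The tanycyte sum is not tanycyte RNA alone, since Vim (464 CPM), Cd59a (185) and Nes (167) were its most abundant members in cluster 3, Cd59a and Nes had their highest level there, and Vim was called in these cells. The sums of the other 8 lists, the pericyte list included, did not pass. With the mice compared within batches by an exact sign flip test, the smallest p that 6 pairs allow is 0.0312, and the adjusted p of these 3 lists was 0.115. The part of free RNA in the lower genes was not tested beyond these values.

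Lipid genes held 3 of the lower genes. Of 18 tested genes of lipid and cholesterol metabolism, Apoc1, Scd1 and Scd2 were called lower (0.585% of all tested genes were) and none higher. At an unadjusted p below 0.05 there were 9 lower and 1 higher (6.45% and 5.81% of all tested genes were), with a median log2 fold change of -0.49 beside 0.01 for all genes. The apolipoprotein gene Apoc1 was at 54.9, 70.0 and 114 CPM with FGF1 and 132, 171 and 257 with vehicle, with no overlap (log2 fold change -1.13 ± 0.18, SE, edgeR FDR = 0.00283). The desaturase Scd2 was at 452, 620 and 877 against 811, 1009 and 1319 (-0.64 ± 0.14, SE, edgeR FDR = 0.0175), with overlap, and Scd1 reached -0.91 (edgeR FDR = 0.0271). With the batch block 4 genes of the list were called, all lower (0.995% of all tested genes were). Scd1 was lost (edgeR FDR = 0.127), and the isomerase Idi1 (FDR = 0.0383) and the fatty acid binding protein Fabp5 (FDR = 0.0300) were added. Without the block the calls of Scd1 and Scd2 were lost without any 1 of 7 and of 6 mice (edgeR FDR up to 0.0862 and 0.0713). Apoc1 and Scd1 were highest in astrocyte clusters and Scd2 in the oligodendrocyte cluster 11, and the share of cells with a UMI was 15.8% and 14.8% (Apoc1), 15% and 12.0% (Scd1) and 61.9% and 57.3% (Scd2) in cluster 3 and microglia.

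Without the batch block no gene of the barrier lists was called. Of 14 tested junction genes, 8 efflux transporters, 21 nutrient and ion carriers and 18 genes of Wnt signalling and barrier control, edgeR called 0 with or without the block and DESeq2 called 0. At an unadjusted edgeR p below 0.05, which 12.3% of all tested genes passed (5.81% higher, 6.45% lower), 3 junction genes, 2 transporters and 3 carriers were higher, and 1 carrier and 1 Wnt gene lower. Their median log2 fold changes were 0.10, 0.14, 0.09 and -0.05. Of 10 tested genes of transcytosis, caveolae and receptors, edgeR called 0 without the block and DESeq2 0, with 1 higher and 1 lower at an unadjusted p below 0.05 and a median of -0.05, and with the block Fabp5 was called lower (-0.56, edgeR FDR = 0.0300). Cldn5 was at 847, 994 and 2012 CPM with FGF1 and 855, 940 and 2935 with vehicle (log2 fold change -0.22 ± 0.36, SE, edgeR FDR = 0.858), and both groups held 1 mouse far above the rest. The glucose carrier Slc2a1 was at 1167, 1304 and 1743 against 1037, 1236 and 1363 (0.22 ± 0.12, SE, edgeR FDR = 0.459). Abcb1a was at 531, 709 and 928 against 550, 626 and 924 (0.08 ± 0.14, SE, edgeR FDR = 0.873), and the groups overlapped for all 3 genes. With 1 mouse left out at a time Cldn5 ran from -0.46 to 0.20, so that its sign rests on single mice.

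The identity genes also stayed below the threshold. Of 15 tested, edgeR and DESeq2 called 0, 8 were higher at an unadjusted edgeR p below 0.05 and none lower, and the median log2 fold change was 0.25. The median cell held 1.18% UMIs of 72 marker genes of other cell types with FGF1 and 1.44% with vehicle (means of 6 mice). This share was lower with FGF1 in 6 of 6 batches, with overlap (two-sided exact permutation test, unadjusted p = 0.0346). Its part in the levels of endothelial genes was not tested. Itm2a came nearest, at 2602, 2921 and 3557 CPM against 1899, 2334 and 2771 (0.37 ± 0.12, SE, edgeR FDR = 0.132). Zone genes gave 0 calls by edgeR among 10 arterial, 10 capillary and 8 venous genes, with 2 arterial and 2 venous genes higher and 1 arterial gene lower at an unadjusted p below 0.05, and DESeq2 called 1, Mgp, higher. Mgp was at 283, 414 and 547 with FGF1 and 185, 283 and 334 with vehicle (0.63 ± 0.16, SE, edgeR FDR = 0.0651, DESeq2 FDR = 0.0421).

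Receptors for the injected factor were looked up next. The FGF receptor Fgfr1 had 41.0 CPM and a UMI in 6.18% of cells, against 3.90% of microglia and beside medians of 49.3 CPM and 7.51% of cells over all tested genes. It was at 28.0, 41.7 and 46.3 with FGF1 and 28.9, 49.3 and 77.0 with vehicle (log2 fold change -0.18 ± 0.22, SE, edgeR FDR = 0.787), overlapping. Fgfr3, highest in astrocytes, had a UMI in 14.5% of cluster 3 cells and 14.0% of microglia, and missed the threshold without the batch block (-0.81, edgeR FDR = 0.0689) but passed it with the block (edgeR FDR = 0.0300) and by DESeq2 (FDR = 0.0354). Of 7 tested FGF receptor and ligand genes, 3 were lower at an unadjusted p below 0.05 (6.45% of all tested genes were) and none higher. Their median log2 fold change was -0.31. With the block 2 were called lower (0.995% of all tested genes were), Fgfr3 and Sdc4 (-0.64, edgeR FDR = 0.0300), which is also highest in an astrocyte cluster. Of 10 tested MAPK feedback genes and 18 immediate early genes, edgeR called 0 without the block and DESeq2 0, with 1 feedback gene lower and 4 immediate early genes higher at an unadjusted p below 0.05. With the block 1 of the immediate early genes, Btg2, was called, higher (0.50, edgeR FDR = 0.0421). Dusp1, a phosphatase that is switched on by stress and mitogens, differed by 0.02 ± 0.17 (SE, edgeR FDR = 0.985).

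Most interferon and antigen presentation genes had a log2 fold change above 0, and none passed the test without the block. Of 26 tested list members, edgeR called 0 without the block and DESeq2 0. At an unadjusted p below 0.05, 8 were higher and none lower, beside 5.81% and 6.45% of all tested genes. The median log2 fold change was 0.36 with 24 above 0, beside 51.8% of all genes. With batch as a block, 5 passed, all higher, as did 0.774% of all tested genes. The antiviral membrane protein Ifitm3 was at 1126, 1295 and 2651 CPM with FGF1 and 641, 809 and 1382 with vehicle (block log2 fold change 0.70, edgeR FDR = 0.00179, and 0.259 without the block). Tetherin, encoded by Bst2, was at 167, 198 and 432 against 82.9, 133 and 224 (0.77, block edgeR FDR = 0.00269, and 0.328 without the block). The class I light chain B2m was at 988, 1116 and 2367 against 574, 783 and 1881 (0.54, block edgeR FDR = 0.0138, and 0.599 without the block), followed by the proteasome subunit Psmb9 (0.76, FDR = 0.0300) and the transcription factor Irf7 (0.75, FDR = 0.0322). All overlapped between groups. For Ifitm3, B2m and Bst2 both mice of batch 3 were the highest of their group, and FGF1 was above vehicle in 6 of 6 batches. Microglia had a log2 fold change of 2.07 for Ifitm3 without passing the test (edgeR FDR = 0.349, and 0.187 with the block). Astrocytes, oligodendrocytes and tanycytes had values of 1.32, 1.32 and 0.75 for Ifitm3, not called without the block (edgeR FDR = 0.247, 0.307 and 0.396) and called with it (edgeR FDR = 1.27e-05, 0.00404 and 0.0406). B2m and Bst2 had a UMI in 67.7% and 21.1% of cluster 3 cells and in 81.7% and 21.1% of microglia, which use these genes too.

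The promoters of these genes are shown because several carry the interferon-stimulated response element core, searched as GAAANNGAAA on both strands from 250 bases before to 50 bases after each RefSeq gene start (GRCm38.p6). It was present in 12 of 24 list members with a promoter (50%), against 3.44% of 32851 promoters. Among genes called with the batch block it was present in 8 of 37 higher genes (21.6%) and 4 of 50 lower genes (8.0%), against 3.99% of the 4917 tested genes with a promoter. The higher genes include 5 members of the list and the lower genes none. Each line gives up to 30 bases on either side of the first match, 5' to 3' on the gene's strand, with the matched letters in capitals, where TTTCNNTTTC is the same core on the other strand. The windows are B2m at chr2:122147518-122147587 (plus), Bst2 at chr8:71537563-71537632 (minus, with overlapping matches), Edn1 at chr13:42301368-42301437 (plus) and Tm4sf1 at chr3:57302168-57302237 (minus).
B2m: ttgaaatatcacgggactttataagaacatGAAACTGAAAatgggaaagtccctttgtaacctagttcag
Bst2: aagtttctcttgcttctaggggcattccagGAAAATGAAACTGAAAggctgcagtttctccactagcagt
Edn1: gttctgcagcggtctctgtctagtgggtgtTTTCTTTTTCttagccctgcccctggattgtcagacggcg
Tm4sf1: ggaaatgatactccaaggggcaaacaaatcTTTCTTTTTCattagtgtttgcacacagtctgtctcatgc
Among the list genes of the results above B2m and Bst2 carry it, and so does Ifitm3, with matches in the bases after the gene's start. Irf7 and Psmb9 have no match in this window, and Edn1 and Tm4sf1 carry a match although they are not in the list. A match in these letters is a description of the window and shows no binding.

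The endothelial response was last set against that of neighbouring cells by an interaction test on the same 12 mice. Against astrocytes, 476 of 9261 genes (5.14%) differed, with the endothelial effect above in 175 (1.89%) and below in 301 (3.25%). The filter of this test keeps genes that were measurable in only 1 of the cell types. Among the 5 genes of lowest FDR above were the stress genes Dusp1 and Cdkn1a. Dusp1 had a log2 fold change of 0.02 in endothelial cells and -1.88 in astrocytes (difference 1.89 ± 0.20, SE, edgeR FDR = 3.36e-08), and Cdkn1a 0.27 and -1.35 (difference 1.62 ± 0.21, SE, edgeR FDR = 6.11e-06). The other 3 of these genes were Hes1, Gadd45g and Btg2. Below were Cpe (difference -1.44, edgeR FDR = 8.75e-10), Plat, Lamp1, Marcks and S100a11. Plat, tissue plasminogen activator, was 0.41 in endothelial cells and 1.67 in astrocytes (difference -1.26 ± 0.15, SE, edgeR FDR = 3.55e-08). Of the called genes highest in cluster 3, Plscr1 and Tax1bp3 missed the threshold of this test (edgeR FDR = 0.0780 and 0.515). Ptprr and Ptprb missed it too (edgeR FDR = 0.501 and 0.766), and both were too low in astrocytes for a fit of their own there. Of the genes highest in cluster 3 that were called with the block alone, Hprt differed (difference 1.14 ± 0.24, SE, edgeR FDR = 0.00383). Edn1 differed as well (difference 1.75 ± 0.49, SE, edgeR FDR = 0.0206), although it was too low in astrocytes for a fit of its own there. Hprt and Edn1 were chosen for a rise in endothelial cells of the same mice, which favours a difference above 0. Nothing is read from these 2 differences. The differing cluster makeup of the astrocyte sums in both groups holds for these values too.

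Against tanycytes, whose processes contact vessels, 19 of 9604 genes (0.198%) differed, 5 (0.0521%) with the endothelial effect above and 14 (0.146%) with it below. The tanycyte sums pool clusters 0, 7 and 10, with mean shares of 20.7%, 9.40% and 3.96% of the cells of a mouse with FGF1 and 14.3%, 2.31% and 2.01% with vehicle, so that the limit on cluster makeup holds here too. Above were Glul, Spock2, Myrip, Epas1 and Itm2a. Glul was -0.09 in endothelial cells and -0.81 in tanycytes (difference 0.71 ± 0.09, SE, edgeR FDR = 2.39e-06), and the hypoxia factor Epas1 0.02 and -0.77 (difference 0.82 ± 0.17, SE, edgeR FDR = 0.0145). Below, by lowest FDR, were Lgals1, H3f3b, S1pr3, Ldhb and Vim. Lgals1 was 0.06 in endothelial cells and 1.27 in tanycytes (difference -1.23 ± 0.19, SE, edgeR FDR = 0.000115). Vim was 0.55 and 1.02 (difference -0.48 ± 0.10, SE, edgeR FDR = 0.00963), and against astrocytes the difference of Vim was -1.31 ± 0.20 (SE, edgeR FDR = 3.70e-05).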

How the data were processed

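Single-cell RNA-seq was measured on MBH cells of 12 mice. The authors aligned reads with Cell Ranger 1.2 (mouse build GRCm38/mm10), removed doublets with Scrublet and by iterative clustering, removed neurons and clustered with Seurat; the labels also name GRCh38 without a role. The authors deposited raw UMI counts per gene and cell and, per the file headers, percent mitochondrial and ribosomal UMIs, clusters and batch for each cell. The table holds fewer cells than the study states for this experiment, and the difference was not resolved here. Single-nucleus files were not used here.

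Counts of 16304 genes were summed over cluster 3 cells per mouse, TMM scaled, filtered with filterByExpr and tested with edgeR 4.0.16 (quasi-likelihood, Benjamini-Hochberg) without covariates, after the authors' pseudobulk design. The alternatives were DESeq2 1.42.0, RLE scaling, no filter, batch as a block, leaving out each mouse, dropping cells (above 20% mitochondrial or ribosomal UMIs, with Plvap, above 2% UMIs of other types' markers) and thinning to 1000 UMIs. Alternatives added after the data were seen were leaving out batches, dropping cells with pericyte UMIs, sign flips and further fits with the block. Interactions took 2 sums per mouse with mouse as a block. Shares used exact permutation tests (Python 3.11.15, scipy 1.17.1). The fits were also run on counts simulated with batch effects shared by batch mates. That run says nothing about the calls made here.

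The members, gene lists and tests were chosen with earlier results of these data known. Named genes were those of lowest FDR in each direction, called list members and a set list of barrier, receptor and signalling genes; the genes with the batch block, the pericyte cut and the zone genes were chosen after their values were seen. The sequences came from RefSeq (GRCm38.p6), in which 4917 tested genes had a promoter. Standard errors, and intervals between mice, cover 6 mice per group.

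The batch number pairs 1 FGF1 with 1 vehicle mouse. Deviations from the group means of the 2 mice of a batch correlated by -0.071, -0.021, 0.034, -0.108, 0.155 and 0.159, and 2 of 12 mice were closest to their own batch mate. With 6 mice of the other group to choose from, a random pick would give the same number on average. The values of 1 gene are not reported here.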

Additional observations from a re-analysis of the deposited data

Results flagged for a closer look

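Of 138 groups of 6 mice examined with Dixon's test, 18 held a mouse apart from the other 5; chance flags about 1 in 20 groups. FGF1 replicate 6 stood highest for Ifitm3 (2651 CPM, the other FGF1 mice 1126 to 1400), B2m (2367, others 988 to 1249), Bst2 (432, others 167 to 259), Irf7 (147, others 57.8 to 89.6), Gfap (173, others 48.7 to 89.6) and Lyz2 (78.5, others 22.4 to 42.6). Vehicle replicate 22, of the same batch, stood highest for B2m (1881, the other vehicle mice 574 to 848), Bst2 (224, others 82.9 to 136), Psmb9 (71.3, others 25.5 to 41.8) and Cldn5 (2935, others 855 to 1272). Cldn5 was also high in FGF1 replicate 28 (2012, others 847 to 1053).

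Low values were found for Dusp1 in vehicle replicate 29 (355, others 740 to 949), Sirt2 in vehicle replicate 27 (83.4, others 122 to 139) and Plscr1 in FGF1 replicate 36 (47.6, others 60.6 to 67.0). The sterol gene Idi1 had no UMI in FGF1 replicate 21 (level 0, which at 227646 UMIs allows up to 13.2 CPM; others 18.3 to 22.4). FGF1 replicate 7 stood highest for the share of cells with a Plvap UMI (10.3%, others 0% to 3.17%) and with pericyte UMIs (47.3%, others 31.6% to 37.4%), and vehicle replicate 35 for the share with a Plvap UMI (4.95%, others 0% to 1.16%).

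The FGF1 effect of 476 genes differed between endothelial cells and astrocytes, and that of 19 genes between endothelial cells and tanycytes, by the interaction test of edgeR.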

How the results depend on the processing

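The count of 60 genes fell to 30 with every cell thinned to 1000 UMIs, where fewer genes (3422) could be tested, and to 35 without cells holding 5 or more UMIs of the 6 pericyte genes. It fell to 42, with 34 of the 60 among them, without cells above 2% UMIs of other types. It rose to 136 with no filter on low counts, to 112 with batch as a block and to 111 with the block and RLE scaling. The block count itself was 62 without cells above 2% UMIs of other types, 72 without the cells of 5 or more pericyte UMIs, and 53 by DESeq2, which gave an adjusted p for 1712 genes. Leaving out 1 mouse gave 19 (without vehicle replicate 25) to 143 genes (without vehicle replicate 35), and leaving out 1 batch with the block 24 (without batch 4) to 114 (without batch 2), with 106 without batch 5, 60 without batch 3, 40 without batch 1 and 27 without batch 6. DESeq2 called 68 genes, 54 of them among the 60. Of the 60 genes, 15 were called without any 1 mouse and 7 in every planned setting. The cause of these shifts was not tested beyond the number of cells or genes that each setting leaves. Without the filter, 84 genes differed from tanycytes in place of 19.

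Over the 60 called genes, 864 of 1213 gene and setting pairs kept direction and call, 349 lost the call and 0 reversed; over 34 genes not called, 56 of 705 pairs gained it and 0 passed the threshold in the opposite direction, although the sign of genes near 0 turned (Cldn5, -0.46 to 0.20 with 1 mouse left out). By the labels' replicate numbers, no paired analysis was possible because the FGF1 and vehicle groups of the whole-cell data share none; mice were paired by the batch number of the metadata instead, in the block and the sign flips. By sign flips within batches the marker sums of astrocytes (difference -21.9 UMIs per 10000), tanycytes (2.75) and ependymal cells (0.882) kept their sign and missed the threshold. The shallowest mouse, at 227646 UMIs, limits genes of low level.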

Other observations

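Other gene groups are read beside the 5.81% of all tested genes that were higher and 6.45% that were lower at an unadjusted edgeR p below 0.05. Of 12 tested Notch genes, edgeR called 0 with or without the block and DESeq2 0, with 4 lower at an unadjusted p below 0.05 and a median log2 fold change of -0.13. Of 14 heat shock genes, likewise 0 were called by edgeR or DESeq2, with 4 higher at an unadjusted p below 0.05 and a median of 0.12. Of 14 glucocorticoid response genes, edgeR called 0 without the block and DESeq2 0, with 5 lower and 1 higher at an unadjusted p below 0.05, and 1 passed with the block (Tmem252, higher).

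Among 17 tested antioxidant genes, Gstm1, a glutathione transferase, fell from 430, 505 and 566 CPM (lowest, median, highest vehicle mouse) to 283, 348 and 432 (log2 fold change -0.47 ± 0.12, SE, edgeR FDR = 0.0399, lost without any 1 of 7 mice with an FDR of up to 0.129), and the peroxiredoxin Prdx6 was called by DESeq2 (0.51, DESeq2 FDR = 0.0354) and by edgeR with the batch block (FDR = 0.0325), but not by edgeR without it (FDR = 0.0522). Among 12 vasoactive and coagulation genes, F3, the initiator of coagulation known as tissue factor, fell from 56.4, 84.2 and 128 to 18.3, 34.9 and 50.3 with no overlap (-1.28 ± 0.23, SE, edgeR FDR = 0.00784). F3 was highest in astrocyte cluster 1 and had a UMI in 7.95% of cluster 3 cells and 9.68% of microglia, so that expression of F3 by cluster 3 cells is not shown. The sonic hedgehog receptor Ptch1, also highest in cluster 1, reached -0.76 (edgeR FDR = 0.00980).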
